A study of Mus musculus with 6 samples.

Results

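The NF-κB subunits and the inhibitors that NF-κB itself induces are described here in CD11B+ cells of the injured kidney. The 10 genes were chosen by name from textbook roles, with earlier results of these data known, so they are not an independent choice. They are the 5 subunits of the Rel family (Nfkb1, Nfkb2, Rel, Rela and Relb) and 5 negative regulators whose transcripts are induced by NF-κB or by stress (Nfkbia, Nfkbiz, Tnfaip3, Zfp36 and Ier3), out of 46603 genes in the table. All 10 passed the filter on low counts, 10 of the 15440 genes that did. RNA-Seq was done on CD11B+ cells, isolated with magnetic beads after digestion of the kidneys. There were 3 Cre- control and 3 PTEC DN RAR mice, all males of 10 to 12 weeks, with 1 library for each mouse. Kidneys were taken on day 3 after bilateral ischemia reperfusion injury induced AKI (IRI-AKI), with a clamp time of 28 min on each side. Both groups carried the Rosa26-LSL-RARaT403X allele, a dominant negative RARα (the retinoic acid receptor α) that is silent until Cre removes its stop cassette, and both had AKI. PEPCK-Cre was kept on a mixed 129svJ and C57BL/6 background and the receptor allele on C57BL/6, per the methods of the study. Only the PTEC DN RAR mice also carried PEPCK-Cre, which is active in proximal tubular epithelial cells (PTECs), so the receptor was blocked in the tubule and not by design in the sorted cells. The comparison therefore asks how loss of retinoic acid signaling in PTECs after injury relates to transcripts in CD11B+ myeloid cells.

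NF-κB is a family of dimeric transcription factors that drives inflammatory genes in macrophages, monocytes and neutrophils. In resting cells the dimers are held in the cytoplasm by IκB proteins. Signals from Toll-like, IL-1 and TNF receptors activate the IKK kinase complex, IκB is degraded, and the freed dimers enter the nucleus. Among the first genes they induce are their own inhibitors, which end the response. The steady transcript levels of subunits say little of their activity, since the dimers are regulated mainly through release and nuclear entry of the protein, and neither was measured by RNA-Seq. The inhibitors here act at different levels. Nfkbia encodes IκBα, the classical cytoplasmic inhibitor. Nfkbiz encodes IκBζ, a nuclear IκB that restrains some NF-κB targets and is a coactivator of others, such as Il6. Tnfaip3 encodes A20, a ubiquitin-editing enzyme that acts upstream of IKK. Zfp36 encodes tristetraprolin, which binds AU-rich elements and promotes decay of cytokine mRNAs. Ier3 (IEX-1) is a stress-inducible immediate early gene that affects cell survival and has been described to restrain NF-κB.

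The κB motifs ahead of these genes are shown since NF-κB is known to induce its inhibitors through such motifs. For 7 of the 10 genes RefSeq (GRCm38.p6) gave at least 1 window of 250 bases before a start, 10 windows in all with 3 for Nfkb2 and 2 for Tnfaip3, which were searched on both strands for the 10-base κB consensus. The promoters of Ier3, Nfkbia, Rel, Nfkb2 and Tnfaip3 held at least 1 match in any window, those of Rela and Zfp36 held none, and no window was at hand for Nfkb1, Relb and Nfkbiz. Counted by window, 7 of the 10 held a match, and among 32817 mouse promoter windows of the same length 7.2% did. The genes were chosen for their NF-κB roles and some have several windows, so these shares are a description and no test. In the stretches below, written 5′ to 3′ on the strand of the gene and ending at the base before the start in GENCODE M21, capitals mark the match. Ier3 and Nfkbia among the inhibitors and Rel among the subunits were chosen, after their values were seen, as genes with a match whose levels differed most, and Rela as the subunit whose level differed least. Of the 7 genes with a window, Ier3, Nfkbia, Tnfaip3 and Rel held a match and were called lower, and Rela had neither. Zfp36 held no match and was called lower, while Nfkb2 held a match in all 3 windows and was not (log2 fold change 0.07). The windows of Zfp36 and Nfkb2 lay inside the gene as drawn in GENCODE M21, as did nearly all of those of Tnfaip3. Whether a match bears on a change was not tested.
Ier3 promoter, chr17:35821463-35821683, plus strand: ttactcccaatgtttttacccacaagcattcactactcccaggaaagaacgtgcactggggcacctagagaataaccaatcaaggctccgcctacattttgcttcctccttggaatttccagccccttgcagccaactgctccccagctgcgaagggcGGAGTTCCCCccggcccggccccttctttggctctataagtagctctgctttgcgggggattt
Nfkbia promoter, chr12:55492648-55492897, minus strand: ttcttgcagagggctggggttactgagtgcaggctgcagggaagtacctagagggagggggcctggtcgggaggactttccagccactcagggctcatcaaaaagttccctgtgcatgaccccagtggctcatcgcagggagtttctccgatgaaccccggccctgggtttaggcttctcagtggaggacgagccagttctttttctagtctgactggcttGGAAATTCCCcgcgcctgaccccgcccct
Rel promoter, chr11:23770971-23771219, minus strand: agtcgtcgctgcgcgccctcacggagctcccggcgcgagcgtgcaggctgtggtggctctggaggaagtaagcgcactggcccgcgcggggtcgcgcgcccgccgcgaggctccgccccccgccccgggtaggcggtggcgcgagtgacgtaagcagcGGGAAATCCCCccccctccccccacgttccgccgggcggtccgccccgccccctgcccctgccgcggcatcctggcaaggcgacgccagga
Rela promoter, chr19:5637291-5637482, plus strand: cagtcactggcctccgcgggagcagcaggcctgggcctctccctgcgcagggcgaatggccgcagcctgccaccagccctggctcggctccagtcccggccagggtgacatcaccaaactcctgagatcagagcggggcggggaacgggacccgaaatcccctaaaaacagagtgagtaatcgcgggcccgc
Counted from the RefSeq start, which can lie further downstream, the match began 92 bases ahead in Ier3 and 29 bases ahead in Nfkbia. In Rel overlapping matches on opposite strands began 91 and 92 bases ahead, and 1 of the windows of Tnfaip3 held matches at 12 and 125 bases. These are matches of letters only, and binding of NF-κB was not measured in these libraries.

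All 6 libraries were deep enough for every member, whose lowest raw count in any library was 1006 and highest 113734. For the lowest count the exact 95% Poisson interval was 945 to 1070, which covers counting error only. Total gene counts were between 29318041 and 40741507 in Cre- controls and between 42113139 and 46517005 in PTEC DN RAR mice. The mitochondrial share of counts was 5.03% to 8.77% in controls and higher, 10.38% to 12.08%, in PTEC DN RAR mice. Itgam, which encodes CD11B, was present in all libraries at 1737, 1959 and 1995 CPM (read counts scaled to library size and by TMM) in controls and 1366, 1303 and 980.3 CPM in PTEC DN RAR mice, a log2 fold change of -0.64 (adjusted p = 0.00818, edgeR's quasi-likelihood test). Adgre1, which encodes the macrophage marker F4/80, was at 1406 to 1485 CPM in controls and 1225 to 1712 CPM in PTEC DN RAR mice, so the genotypes overlapped. Rara itself was at 45.45, 35.33 and 45.11 CPM in controls and 30.75, 31.53 and 37.55 CPM in PTEC DN RAR mice (log2 fold change -0.33, adjusted p = 0.0628, edgeR's quasi-likelihood test), and these counts cannot separate the dominant negative transgene from the endogenous gene. In bulk samples fewer cells of a type and less RNA per cell cannot be told apart.

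All 5 inhibitors were lower in PTEC DN RAR mice, while 4 of the 5 subunits overlapped between genotypes. Ier3 fell by 72.2%, Zfp36 fell by 42.5% and Nfkbia fell by 30.7%. Smaller changes were seen for Tnfaip3, which fell by 20.8%, and Nfkbiz, which fell by 18.5%. Rel fell by 21.2% and was the only subunit called on this scaling (TMM), on which no member was called higher. With libraries scaled on pan-leukocyte genes, 2 members were lower (Ier3 and Zfp36) and 2 higher (Relb and Nfkb2). Of all 15440 genes 693 were lower and 5346 higher on that scaling. On TMM scaling 6 of the 10 genes fell by edgeR's quasi-likelihood test at an adjusted p under 0.05, against 17.1% of all 15440 genes tested (2636 genes lower and 3640, or 23.6%, higher, 40.6% in all). In the same 6 genes no library of a PTEC DN RAR mouse reached the lowest control, which held for 24.2% of all genes (53.4% when either direction was counted). Both criteria together held for 16.7% of all genes. The number of members lower was 3 without Cre- control 2, 5 without Cre- control 1 and 4 without any other single library. The median log2 fold change was -0.53 for the inhibitors, 0.00 for the subunits and 0.04 for all genes.

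**Figure D1:**
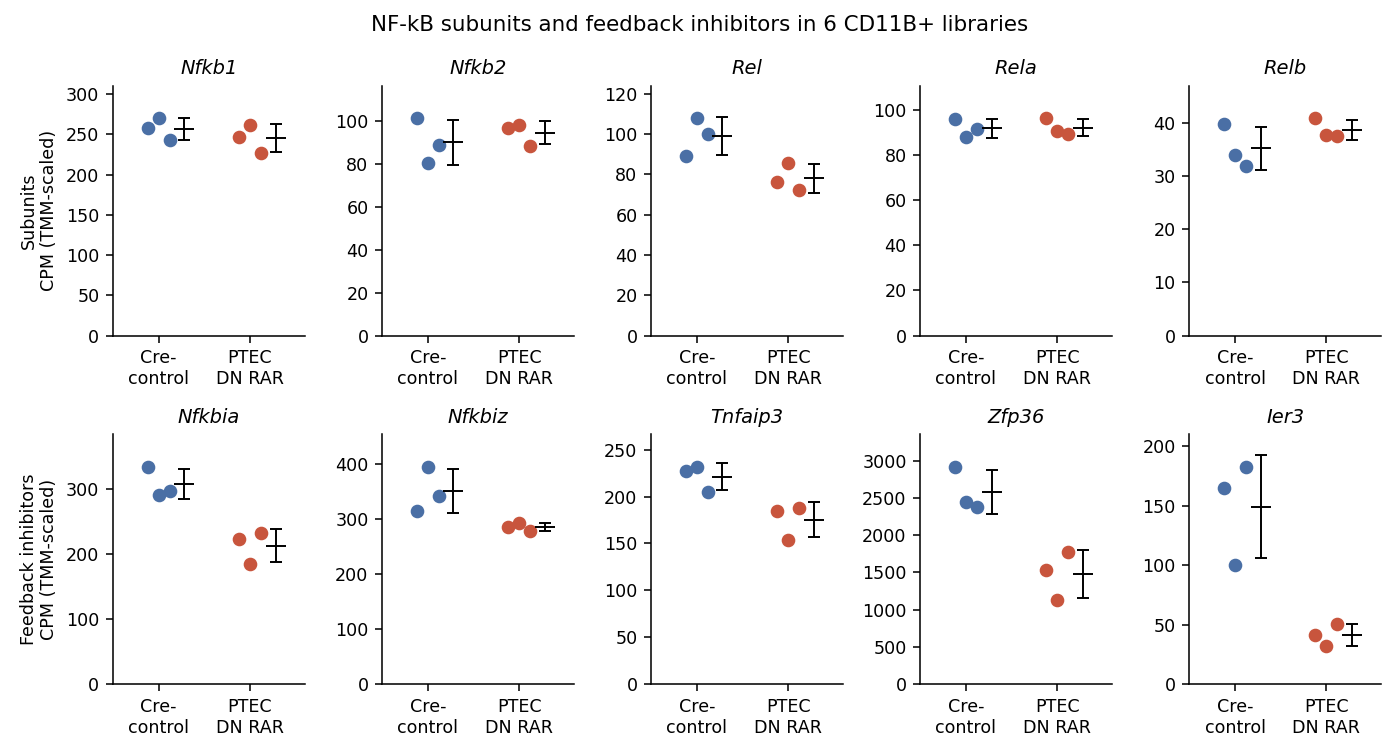
Level of each member in each library, in TMM-scaled CPM on a linear axis that starts at 0 and has its own range in each panel, for Cre- controls (blue) and PTEC DN RAR mice (red), with 1 point for each mouse and the mean with its SD in black. The genotypes separate for Rel and for all 5 inhibitors, with the widest gap in proportion to its level for Ier3 (100.3 to 182.4 CPM against 31.88 to 50.82 CPM), and overlap for Nfkb1, Nfkb2, Rela and Relb.

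Among the inhibitors, Ier3 (chr17:35821684-35822923, plus strand, ENSMUSG00000003541; positions are those of GRCm38 with GENCODE M21) changed most. It was at 164.9, 100.3 and 182.4 CPM in controls and at 41.5, 31.88 and 50.82 CPM in PTEC DN RAR mice. The lowest control was above the highest PTEC DN RAR library by a wide margin, although the controls spread more, in proportion to their mean, than for any other member (149.2 ± 43.3 CPM against 41.4 ± 9.47 CPM, mean ± SD, n = 3 each). The log2 fold change was -1.85 with a standard error of 0.24 and a 95% interval from -2.39 to -1.31 (adjusted p = 0.000795, edgeR's quasi-likelihood test). Counted from the most negative log2 fold change, it stood at position 66 of 15440 genes. Of all genes 2.14% were called lower by at least 2-fold, of which Ier3 was the only one among the 10 genes here.

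Zfp36 (chr7:28376784-28380253, minus strand, ENSMUSG00000044786) was the most abundant member. Its level was 2914, 2446 and 2374 CPM in controls and 1531, 1135 and 1777 CPM in PTEC DN RAR mice. The genotypes did not overlap, and the PTEC DN RAR mice differed among themselves more than the controls did in proportion to their mean. The log2 fold change was -0.80 ± 0.17 (SE), with a 95% interval from -1.19 to -0.41 (adjusted p = 0.00714, edgeR's quasi-likelihood test). Gm44710, an antisense gene, shares 3.6% of the exon bases of Zfp36, and whether the counting used strand is not given in the sources used here.

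Nfkbia (chr12:55489410-55492647, minus strand, ENSMUSG00000021025) gave 333.8, 291.2 and 297.6 CPM in controls and 222.7, 184.6 and 231.8 CPM in PTEC DN RAR mice, again without overlap. Its log2 fold change was -0.53 (SE 0.11, 95% interval -0.78 to -0.28, adjusted p = 0.00608, edgeR's quasi-likelihood test). Tnfaip3 (chr10:19000910-19015657, minus strand, ENSMUSG00000019850) was at 227.5, 231.4 and 204.7 CPM in controls and 184.6, 153.8 and 187.4 CPM in PTEC DN RAR mice. The gap between the lowest control and the highest PTEC DN RAR library was narrow, 204.7 against 187.4 CPM. Its log2 fold change was -0.34 (SE 0.10, 95% interval -0.57 to -0.10, adjusted p = 0.0299 by the same test). The fall of Tnfaip3 did not pass without Cre- control 1 (adjusted p = 0.0580), Cre- control 2 (0.0559) or PTEC DN RAR 2 (0.0934), although the log2 fold change remained negative, from -0.44 to -0.25 over the 6 fits without 1 library.

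Nfkbiz (chr16:55811375-55838899, minus strand, ENSMUSG00000035356) had the weakest fall of the inhibitors. It was at 315.8, 395.3 and 343.1 CPM in controls and 286.7, 293.2 and 278.8 CPM in PTEC DN RAR mice. All 3 PTEC DN RAR libraries lay close together below the controls, which were spread more widely (351.4 ± 40.4 CPM against 286.2 ± 7.19 CPM). The log2 fold change of -0.30 (SE 0.10, 95% interval -0.53 to -0.07) had an adjusted p = 0.0442 in edgeR's quasi-likelihood test. It passed in only 1 of the 6 fits that left out 1 library. Without Cre- control 1 the adjusted p was 0.0183. It was 0.0852 without Cre- control 2, 0.0665 without Cre- control 3, 0.101 without PTEC DN RAR 1, 0.0830 without PTEC DN RAR 2 and 0.0684 without PTEC DN RAR 3.

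Of the subunits, Rel (chr11:23736847-23770970, minus strand, ENSMUSG00000020275) encodes c-Rel, which transactivates cytokine genes in myeloid cells and lymphocytes. It was at 89.13, 107.7 and 99.98 CPM in controls and 75.98, 85.85 and 72.14 CPM in PTEC DN RAR mice. The genotypes were separated by a small step, from 89.13 down to 85.85 CPM. The log2 fold change was -0.34 (SE 0.10, 95% interval -0.58 to -0.11, adjusted p = 0.0276, edgeR's quasi-likelihood test). The call was kept without Cre- control 1 (adjusted p = 0.0131) and without PTEC DN RAR 2 (0.0241), and did not pass without Cre- control 2 (0.0589), Cre- control 3 (0.0611), PTEC DN RAR 1 (0.0801) or PTEC DN RAR 3 (0.0581).

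Rela (chr19:5637483-5648130, plus strand, ENSMUSG00000024927), which encodes p65, the main transactivating subunit of the canonical arm, had the lowest coefficient of variation of the subunits in both genotypes. It was at 96.02, 87.7 and 91.23 CPM in controls and 96.07, 90.73 and 89.11 CPM in PTEC DN RAR mice. The libraries of both genotypes were interleaved, and this coefficient was 4.56% in controls and 3.96% in PTEC DN RAR mice. The log2 fold change was 0.00 with a 95% interval from -0.17 to 0.18, so that on this scaling a fall below 0.886-fold or a rise above 1.14-fold lay outside the interval. Nfkb1 (chr3:135584655-135691547, minus strand, ENSMUSG00000028163), which encodes p105 and its product p50, the usual partner of p65, was at 257.5, 269.6 and 242.4 CPM in controls and 247.1, 261.1 and 227.3 CPM in PTEC DN RAR mice. These values overlapped, with a log2 fold change of -0.07 (95% interval -0.27 to 0.14, adjusted p = 0.589, edgeR's quasi-likelihood test).

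The subunits of the non-canonical arm missed the threshold on TMM scaling and were both called higher on pan-leukocyte scaling. The second scaling raised the median of all genes to 0.27. Less that median, the log2 fold change was 0.03 for Nfkb2 and 0.10 for Relb under both scalings. Nfkb2 (chr19:46304320-46312385, plus strand, ENSMUSG00000025225), which encodes p100 and its product p52, was at 101.4, 80.42 and 88.82 CPM in controls and 97.12, 98.32 and 88.54 CPM in PTEC DN RAR mice. The control libraries bracketed the others on both sides. Its log2 fold change was 0.07 (95% interval -0.16 to 0.30, adjusted p = 0.618, edgeR's quasi-likelihood test). It was -0.05 without Cre- control 2, 0.16 without Cre- control 1 and 0.31 on pan-leukocyte scaling (adjusted p = 0.0492 by the same test). Of its exon bases, 11.58% and 6.52% are shared with AC114539.1 and Psd on the opposite strand. Relb (chr7:19606217-19629438, minus strand, ENSMUSG00000002983), which encodes the partner of p52, was at 39.63, 33.88 and 31.87 CPM in controls and 40.76, 37.63 and 37.53 CPM in PTEC DN RAR mice. Cre- control 1 lay inside the range of the PTEC DN RAR libraries and the other two controls were below it. The log2 fold change was 0.14 (95% interval -0.10 to 0.37, adjusted p = 0.315, edgeR's quasi-likelihood test). Without single libraries it was between 0.02 (without Cre- control 3) and 0.23 (without Cre- control 1), and on pan-leukocyte scaling it was 0.38 (adjusted p = 0.0251 by the same test).

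Within the PTEC DN RAR group the same libraries were low or high for several members. PTEC DN RAR 2 had the lowest level of 4 of the 5 inhibitors (Nfkbia, Tnfaip3, Zfp36 and Ier3), and PTEC DN RAR 3 had the highest level of the same 4 genes. For the subunits PTEC DN RAR 3 was the lowest library in 5 of 5. Among controls no library was lowest or highest for more than 3 of the 5 genes of either role.

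Scaled by exon length, the members covered a wide range of levels. In controls the order of CPM per kilobase of exon was Zfp36 (743), Nfkbia (191), Ier3 (132), Nfkbiz (70.0), Tnfaip3 (30.6), Rela (29.8), Nfkb1 (21.3), Nfkb2 (19.7), Rel (13.3) and Relb (9.04). The control ranges of neighbours overlapped for Tnfaip3 (28.3 to 32.0) and Rela (28.5 to 31.3) and for Nfkb1 (20.1 to 22.4) and Nfkb2 (17.5 to 22.1), so their order is not resolved, whereas the ranges of the other neighbours were apart. In PTEC DN RAR mice the order of the first 4 changed in 1 place, since Ier3 (36.6 CPM per kilobase) was below Nfkbiz (57.0 CPM per kilobase) in mean and in every library (28.2 to 44.9 against 55.6 to 58.4). Among 15386 genes ranked by this level, Ier3 went from position 303 in controls to 1117 in PTEC DN RAR mice. Zfp36 went from position 45 to 69, and Rela from 1535 to 1385. Rela was above Tnfaip3 in every PTEC DN RAR library (29.0 to 31.3 against 21.3 to 25.9 CPM per kilobase). These levels depend on the exon model, and Nfkb1 is divided by a union of 12.06 kb.

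Ratios between members of the same library do not depend on how libraries are scaled. Relative to Rela, all 5 inhibitors were lower in PTEC DN RAR mice with no overlap. A ratio can be lower through less of the inhibitor or more Rela, and it cannot tell these apart. On TMM scaling the log2 fold change of Rela was 0.00. On pan-leukocyte scaling it was 0.24 for Rela, -0.05 for Nfkbiz, -0.09 for Tnfaip3 and -0.28 for Nfkbia, none of them called. Ier3 (-1.60) and Zfp36 (-0.55) were called lower on that scaling. For Ier3 the log2 ratio to Rela was 0.78, 0.19 and 1.00 in controls, against -1.21, -1.51 and -0.81 in PTEC DN RAR mice, with no overlap. This ratio is not divided by exon length, so it compares libraries and gives no order of the levels of both genes. The log2 ratio of Zfp36 to Rela was 4.92, 4.80 and 4.70 in controls, against 3.99, 3.64 and 4.32 in PTEC DN RAR mice. For Nfkbia it was 1.80, 1.73 and 1.70 in controls, against 1.21, 1.02 and 1.38 in PTEC DN RAR mice. In these 3 genes the difference of the mean log2 ratio between genotypes (PTEC DN RAR minus control) was -1.83, -0.82 and -0.54. It was -0.34 for Tnfaip3 and -0.30 for Nfkbiz. The nearest libraries for Nfkbiz were almost level, at 1.72 in Cre- control 1 and 1.69 in PTEC DN RAR 2, and the difference was -0.18 without Cre- control 2. Of the subunits, the log2 ratios of Nfkb1, Nfkb2 and Rel to Rela overlapped between genotypes. That of Rel was -0.11, 0.30 and 0.13 in controls, against -0.34, -0.08 and -0.30 in PTEC DN RAR mice, with PTEC DN RAR 2 above Cre- control 1, so a difference between Rel and Rela was not resolved. The log2 ratio of Relb to Rela did not overlap and was higher in PTEC DN RAR mice, at -1.28, -1.37 and -1.52 in controls, against -1.24, -1.27 and -1.25 in PTEC DN RAR mice, so the nearest libraries were almost at the same value. The mean difference for Relb was 0.14, and 0.07 without Cre- control 3.

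**Figure D2:**
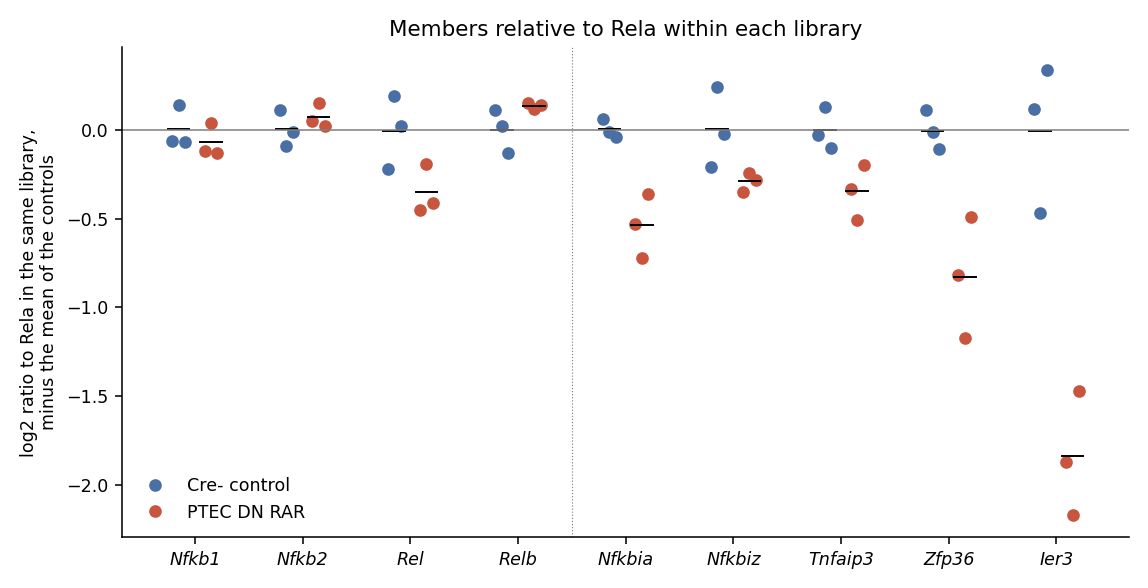
Log2 ratio of each of the other 9 members to Rela within each library, less the mean of the controls for that member, for Cre- controls (blue) and PTEC DN RAR mice (red), with 1 point for each mouse and a line at the mean. All 5 inhibitors lie lower in PTEC DN RAR mice without overlap, from a difference of -0.30 for Nfkbiz to -1.83 for Ier3, while Nfkb1, Nfkb2 and Rel overlap and Relb lies slightly higher.

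Over both roles, the mean log2 CPM of the 5 inhibitors was 8.68, 8.51 and 8.61 in controls, against 7.89, 7.63 and 8.0 in PTEC DN RAR mice. That of the 5 subunits was 6.61, 6.54 and 6.51 in controls, against 6.55, 6.56 and 6.44 in PTEC DN RAR mice. The genotypes were thus apart for the inhibitors and not for the subunits. The mean of the subunits minus that of the inhibitors was -2.05 ± 0.06 (SD, n = 3) in controls and -1.32 ± 0.25 (SD, n = 3) in the PTEC DN RAR group, given as a description without a test. The log2 ratio of Nfkbia to Nfkb1 was 0.37, 0.11 and 0.30 in controls, against -0.15, -0.50 and 0.03 in PTEC DN RAR mice, with no overlap. The mean log2 ratio of Tnfaip3 to Rel differed by 0.00 and that of Nfkbia to Rel by -0.19, both with overlap. These differences moved with single libraries, from -0.10 (without PTEC DN RAR 3) to 0.17 (without PTEC DN RAR 2) for Tnfaip3 to Rel and from -0.31 (without PTEC DN RAR 3) to -0.02 (without PTEC DN RAR 2) for Nfkbia to Rel. Nfkbia to Rel was also at -0.06 without Cre- control 1 and -0.29 without Cre- control 2.

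Several of the calls changed with how the libraries were scaled. When the libraries were instead scaled on 29 pan-leukocyte genes, the median over all genes was a log2 fold change of 0.27 where it had been 0.04 with TMM, and the share of called genes that were lower went from 42.0% to 11.5%. On that scale Ier3 (log2 fold change -1.60, adjusted p = 0.0012) and Zfp36 (-0.55, 0.0374) remained lower by edgeR's quasi-likelihood test. Nfkbia (-0.28, adjusted p = 0.106), Rel (-0.10, 0.481), Tnfaip3 (-0.09, 0.574) and Nfkbiz (-0.05, 0.718) did not pass. Relb (0.38, adjusted p = 0.0251) and Nfkb2 (0.31, 0.0492) were called higher on that scale, whereas Rela (0.24, 0.0616) and Nfkb1 (0.17, 0.156) were not. The pan-leukocyte genes were themselves lower in 11 of 29 cases and higher in none on the TMM scale, with a median log2 fold change of -0.22.

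**Figure D3:**
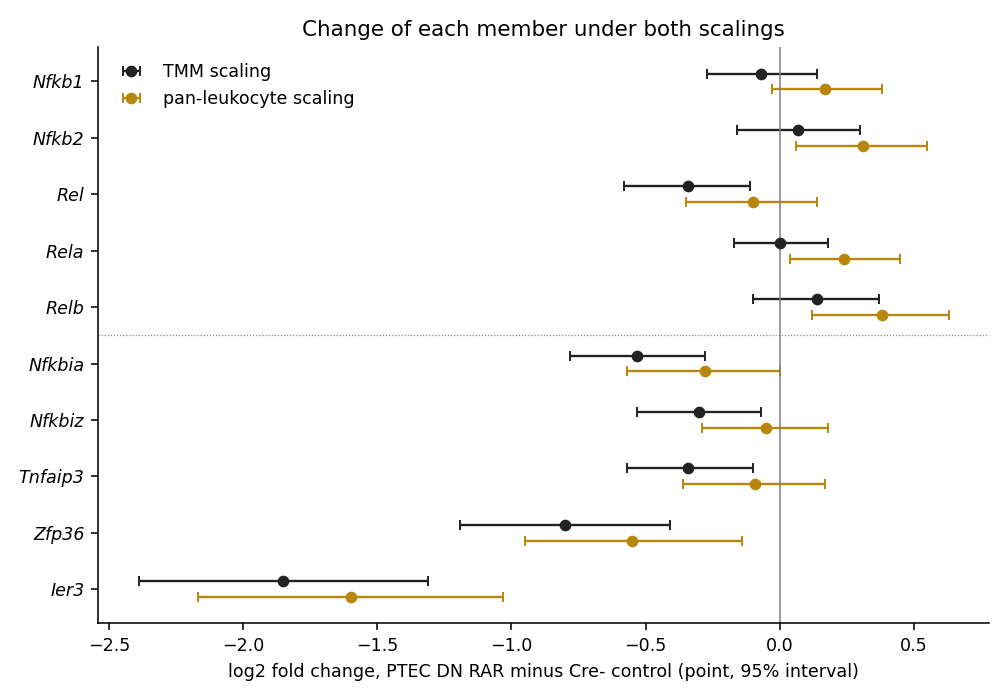
Log2 fold change (PTEC DN RAR minus Cre- control) of each member with its 95% interval, with libraries scaled by TMM (black) or on pan-leukocyte genes (gold). Each gold point is shifted to the right of its black point, Ier3 and Zfp36 keep intervals below 0 under both scalings, and those of Rel, Nfkbiz and Tnfaip3 include 0 under the second, where that of Nfkbia reaches 0. The intervals of Relb, Nfkb2 and Rela lie above 0 under the second scaling.

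The genes next to these in the pathway were counted by role, to be read against the 17.1% of all tested genes that were lower and the 23.6% that were higher. Counts on pan-leukocyte scaling are to be read against 693 lower and 5346 higher of all 15440 genes. Of 4 other IκB family genes only Nfkbie, which encodes IκBε, was called lower (67.12, 59.75 and 66.3 CPM in controls against 55.19, 51.49 and 54.91 CPM, log2 fold change -0.26, adjusted p = 0.0364, edgeR's quasi-likelihood test). The call of Nfkbie did not pass on pan-leukocyte scaling or without Cre- control 1, Cre- control 3, PTEC DN RAR 1 or PTEC DN RAR 2 (0 genes of the list lower in each). Nfkbib, Nfkbid and Bcl3 overlapped between genotypes. Of 20 receptor adaptors, ubiquitin ligases and kinases of the canonical arm, 4 were lower and none higher, with a median log2 fold change of -0.16, whereas on pan-leukocyte scaling 1 was lower and 3 were higher. The number lower on TMM scaling is near the share over all genes, so by itself it marks nothing out about the canonical arm. None was higher on that scaling, beside 23.6% of all genes. Under the other fits the number lower was from 1 (pan-leukocyte scaling) to 6 (DESeq2 or without Cre- control 1). Ripk1, a kinase of the TNF receptor complex, was at 84.08, 88.87 and 89.74 CPM in controls and 55.93, 56.23 and 54.63 CPM in PTEC DN RAR mice. Both groups were tight and far apart (log2 fold change -0.66, adjusted p = 0.000504 by the same test). Map3k8, the kinase TPL2 that signals to ERK, had a log2 fold change of -0.44 (adjusted p = 0.0063), and Myd88, the adaptor of Toll-like and IL-1 receptors, one of -0.37 (adjusted p = 0.00527), both by the same test. Traf6, the ubiquitin ligase downstream of Myd88, was also lower (-0.34). The kinase gene Ikbkb, which encodes IKKβ, was at 128.5, 125.7 and 125.6 CPM in controls and 123.4, 132.3 and 112.7 CPM in PTEC DN RAR mice, with overlap.

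In the non-canonical arm 2 of 7 genes were lower and none higher (1 lower and 3 higher on pan-leukocyte scaling, and 1 lower without PTEC DN RAR 1 or PTEC DN RAR 2). With so few genes among the other IκB genes and in this arm, their counts mark nothing out beside the 17.1% lower and 23.6% higher of all genes. The genes lower in the arm were Tnfrsf11a, the receptor RANK (log2 fold change -0.62, adjusted p = 0.00277, edgeR's quasi-likelihood test), and Birc3, the ubiquitin ligase cIAP2 and itself an NF-κB target (-0.28, adjusted p = 0.0227). Of 15 other negative regulators 7 were lower and 2 higher, with a median log2 fold change of -0.23. On pan-leukocyte scaling 1 was lower and 2 were higher, and without Cre- control 3, PTEC DN RAR 1 or PTEC DN RAR 2 the number lower was 4. Tnip3, an A20-binding protein that is induced by inflammatory signals, was at 35.46, 49.75 and 34.91 CPM in controls and 15.41, 15.32 and 22.4 CPM in PTEC DN RAR mice, a log2 fold change of -1.17 without overlap (adjusted p = 0.0022, edgeR's quasi-likelihood test). Itch (-0.54), a ubiquitin ligase that works with A20, N4bp1 (-0.40) and Cyld (-0.33), a deubiquitinase, were lower too. Tnip1 (log2 fold change 0.26, adjusted p = 0.0306), another A20-binding protein, and Pdlim2 (0.39, adjusted p = 0.0366), a nuclear ubiquitin ligase for p65, were the 2 called higher by the same test. None of the list was called higher without Cre- control 2, Cre- control 3 or PTEC DN RAR 1, and 1 was without any other single library.

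Of 40 textbook NF-κB target genes 39 could be tested, Csf2 being too low. This list too was chosen with earlier results of these data known. Of these 23 were lower and 5 higher, and the median log2 fold change was -0.57. On pan-leukocyte scaling 16 were lower and 8 higher, beside 693 lower and 5346 higher of all 15440 genes. Saa3, an acute phase protein, had the largest fall (log2 fold change -3.53, adjusted p = 0.00765, edgeR's quasi-likelihood test) but an uneven one, with 77.19, 275.6 and 88.79 CPM in controls and 22.51, 13.57 and 2.14 CPM in PTEC DN RAR mice. The monocyte chemokine gene Ccl2 was at 155.2, 192.4 and 189.6 CPM in controls and 41.33, 40.91 and 52.83 CPM in PTEC DN RAR mice, far apart and tight in both (log2 fold change -1.99, adjusted p = 0.000145, edgeR's quasi-likelihood test). Mmp9, a matrix protease that also stands in the neutrophil marker list, had a log2 fold change of -2.09 (adjusted p = 0.00142, same test). The cytokine gene Il1b was called lower (1186, 1115 and 963.7 CPM in controls, 782.8, 621.5 and 657.8 CPM in PTEC DN RAR mice), as were Tnf (log2 fold change -0.37) and Il6 (-1.19), the last at a low level with overlap. The 5 targets called higher were Sele (1.91), Nos2 (1.34), Ccl5 (1.05), Vcam1 (0.91) and Sod2 (0.63), and 3 were without Cre- control 3. Vcam1 overlapped between genotypes, with 127.1 CPM in Cre- control 2 and 126.4 CPM in PTEC DN RAR 3. Sele and Vcam1 encode adhesion molecules of endothelium, and Sele and Nos2 had a mean under 2 CPM over the 6 libraries.

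**Figure D4:**
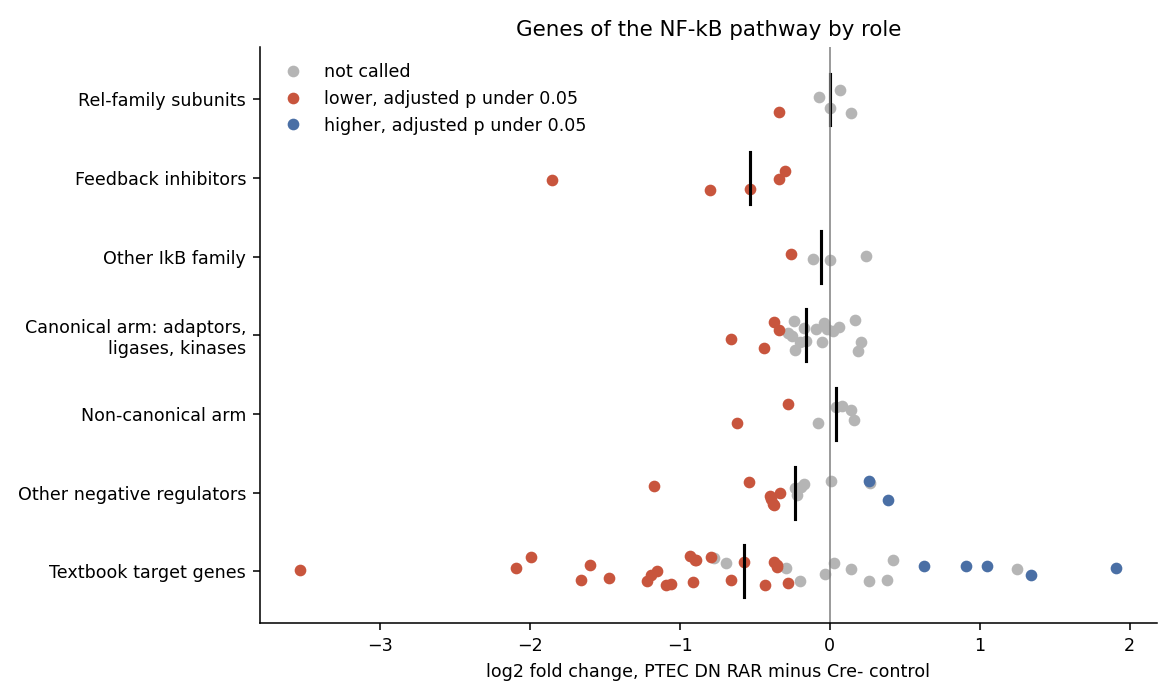
Log2 fold change (PTEC DN RAR minus Cre- control, TMM scaling) of every tested gene of 7 groups of the NF-κB pathway, 1 point for each gene, with a bar at the median of the group. Red points are lower and blue points higher at an adjusted p under 0.05 (edgeR). Target genes and feedback inhibitors have the lowest medians, -0.57 and -0.53, and the subunits lie around 0.

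Several other measures moved together with the inhibitors, and their part in the result was not tested. Of 21 immediate early and heat shock genes 10 were lower and 3 higher (17.1% and 23.6% among all genes, so the number higher does not stand out), while 5 were lower without Cre- control 1 or PTEC DN RAR 1, 6 without PTEC DN RAR 2, and 4 on pan-leukocyte scaling. Zfp36 and Ier3 are themselves immediate early genes in many cell types, and Dusp1 (log2 fold change -0.94), Fos (-0.86) and Atf3 (-0.84) were lower as well. The immediate early genes did not all fall. Egr1, Nr4a1, Klf4, Btg2, Ier2 and Jund overlapped between genotypes and were not called, and neither was Egr3 (0.51). The heat shock genes Hspa1b (0.59), Hspa1a (0.47) and Dnajb1 (0.34) were higher. The remaining one, Hspa8, had a log2 fold change of -0.24 with overlap. The number higher was 1 without Cre- control 2, Cre- control 3, PTEC DN RAR 2 or PTEC DN RAR 3, and 5 without Cre- control 1. Both kinds of gene are known to respond to tissue digestion, and digestion at 37 °C was part of the protocol for all 6 mice. Of 8 infiltrating monocyte markers 7 were lower and none higher. Ly6c2 was not called (adjusted p = 0.0824, edgeR's quasi-likelihood test). It was at 65.22, 47.67 and 34.24 CPM in controls and 13.55, 24.01 and 41.45 CPM in PTEC DN RAR mice, with overlap. The summed level of the monocyte markers was 3812 to 4113 CPM in controls and 1611 to 1673 CPM in PTEC DN RAR mice, mostly from Fn1 and Ccr2. Of 10 neutrophil markers 6 were lower, and their sum was 618.6 to 1098 CPM in controls and 334.0 to 483.8 CPM in PTEC DN RAR mice. Ly6g, Csf3r, Ngp and Camp were not called. Resident macrophage markers were mostly not called (1 lower and 2 higher of 10, 28960 to 34590 CPM against 36390 to 49930 CPM). The gap in that sum came mostly from Cd74, an MHC class II chaperone gene that dendritic and B cells also express, at 10584, 10822 and 8044 CPM in controls and 19506, 23759 and 15533 CPM in PTEC DN RAR mice. Csf1r, Adgre1, C1qa, C1qb, C1qc, Cx3cr1 and Apoe overlapped between genotypes.

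Markers of kidney cells that are not myeloid moved the other way. All 14 proximal tubule markers were higher, with a sum of 741.2 to 985.5 CPM in controls and 2458 to 3854 CPM in PTEC DN RAR mice. All 9 endothelial markers were higher too (88.60 to 131.8 CPM against 265.8 to 323.1 CPM), as were 9 of 12 markers of the loop, distal tubule and collecting duct (1238 to 1813 CPM against 4234 to 8176 CPM). Markers of fibroblasts and pericytes (5 of 7 higher, none lower), podocytes (4 higher and 1 lower of 6), dendritic cells (3 higher and 1 lower of 8), NK and T cells (2 of 8 higher, none lower) and B cells (2 of 5 higher, none lower) were called in part, beside 23.6% of all genes called higher. The count for NK and T cells is near that share, and the B cell list is too short to mark anything out. No listed marker was at 0 in all 6 libraries. The share of these cells in the beads fraction and the level of the members in each cell type cannot be told apart from bulk counts.

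Across the 6 libraries, the gene whose level was most like that of Ier3 was Thbs1 (Pearson's r of log2 CPM 0.9993). Thbs1, which encodes thrombospondin 1, was at 1714, 1108 and 1996 CPM in controls and 435.6, 350.4 and 533.1 CPM in PTEC DN RAR mice. Next were Bivm (0.9978), Cd300lb (0.9968), Fam46c (0.9967) and Slc35f6 (0.9948). These 6 points fall into both genotypes and share the libraries, so a gene that differs between genotypes has a high r by that alone, and the nearest gene of so many also follows Ier3 within each genotype by how it was chosen. Of the genes compared, 973 of 8991 had an r over 0.9.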

How the data were processed

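RNA-Seq of CD11B+ kidney cells (1 library for each of 3 PTEC DN RAR and 3 Cre- control mice, grouped by the genotype in the labels) was deposited as 1 table of raw counts of reads on each Ensembl gene. The authors made these counts with STAR 2.5.0a and HTSeq 0.6.1 on GRCm38, per the submitters' processing notes. The annotation release and the strand setting are not given in the sources used here. Reads aligned to more than 1 place (42.9% to 47.8% of alignments) and ambiguous reads are left out of such counts. After 9 repeated identifiers were collapsed, 46603 genes remained. The members and gene lists were chosen with earlier results of these data known.

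After filterByExpr and TMM scaling, genotypes were compared by the quasi-likelihood test of edgeR 4.0.16 (R 4.3.3). P-values were adjusted by Benjamini-Hochberg over the 15440 genes, with a threshold of 0.05. Standard errors are the log2 fold change divided by the square root of F, and 95% intervals use the degrees of freedom of the fit. Fold changes are fitted values, and ratios use log2 CPM with a prior count of 2. Exon lengths and positions came from GENCODE M21. The tests were tried on simulated counts in which few genes changed, equally in both directions, which does not examine the choice of scaling. Alternatives were DESeq2 1.42.0, limma-voom 3.58.1, other scalings and filters, a prior count of 0.25, the replicate number as a block, and leaving out each mouse. Besides the members, genes named by rule are the 3 with the largest change per list (adjusted p under 0.05, mean of at least 5 CPM, no overlap), the 5 nearest to Ier3 with at least 10 CPM, the first marker of each cell type where used, and Rara. Other genes named beside them were chosen after their values were seen. No 2 libraries of a genotype agreed within sampling noise (chi-square per degree of freedom at least 29.6). Each numbered library is taken as 1 animal. The p-values set the difference between genotypes against the spread between these mice, which is estimated in part from all genes.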

Additional observations from a re-analysis of the deposited data

How the results depend on the processing

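Over the 14 other fits (8 other tools, scalings, filters or the block, and 6 that left out 1 library), Ier3 and Zfp36 were called lower in all 14, Nfkbia in 13, Tnfaip3 in 10, Rel in 9 and Nfkbiz in 6. On pan-leukocyte scaling 693 genes were lower and 5346 higher. Of the members 2 were lower and 2 higher, with 0 subunits lower, 2 subunits higher and 2 inhibitors lower. The same scaling gave 0 lower and 1 higher of the other IκB genes, 1 lower and 3 higher in the canonical arm, 1 lower and 3 higher in the non-canonical arm, 1 lower among other negative regulators, 8 higher among targets and 4 lower among immediate early genes. Nfkbiz did not pass with library size alone (adjusted p = 0.0617, edgeR) or with at least 10 counts in every library (0.0572), and 0 other IκB genes were lower under the latter. With DESeq2, its size factors in edgeR, or no filter, 1 other negative regulator was higher.

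Leaving out 1 library gave 3 to 5 members lower. The range was 0 to 1 for subunits lower, 3 to 4 for inhibitors lower, 0 to 1 for other IκB genes lower and 0 to 1 higher. It was 1 to 2 lower and 0 to 1 higher in the non-canonical arm, 4 to 7 lower and 0 to 1 higher among other negative regulators, 3 to 6 higher among targets, and 5 to 10 lower and 1 to 5 higher among immediate early and heat shock genes. The log2 fold changes that turned sign were all of genes that passed in neither fit, namely Nfkb1 (0.17 on pan-leukocyte scaling), Nfkb2 (-0.05 without Cre- control 2, and up to 0.16 without another library) and Rela (-0.03 with DESeq2, -0.03 with its size factors in edgeR, -0.02 without a filter, and -0.07 to 0.03 without 1 library). The cause was not tested. Replicate numbers join different animals and did not pair the libraries (r of deviations -0.01, 0.21 and 0.03 for equal numbers), and with the replicate block 2606 genes were lower and 3612 higher, against 2636 and 3640, with 6 members lower and 0 higher. Depth does not limit the members, which have at least 1006 reads, but 3 mice for each genotype do, and the differences in the cell markers cannot be told apart from the genotype.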
